A study of Mus musculus with 10 samples.

Results

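The Wnt ligands, the Frizzled receptors and the secreted inhibitors of Wnt signaling were followed in the left ventricle of the mouse heart under pressure overload. The members were the probes whose gene symbol was a numbered Wnt, Fzd, Sfrp or Dkk gene, Wif1 or Frzb, which gave 39 of the 19942 gene symbols of the array and 46 of its 26423 probes. They comprised 19 Wnt genes with 1 probe each, 10 Fzd genes with 17 probes, and 10 inhibitor genes (Sfrp1, Sfrp2, Sfrp4, Sfrp5, Frzb, Dkk1, Dkk2, Dkk3, Dkk4 and Wif1) with 1 probe each.

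Wnt proteins are secreted lipid-modified ligands that bind the seven-pass Frizzled receptors together with co-receptors of the Lrp, Ror and Ryk families. In the canonical branch the bound receptor stops the destruction of beta-catenin, which then acts in the nucleus with the TCF/LEF factors, and other branches act on cell polarity and calcium. Secreted Frizzled-related proteins (the Sfrp family and Frzb) and Wif1 bind the ligands outside the cell, whereas Dkk proteins bind the Lrp co-receptors. The pathway is used in heart development, is quiet in much of the adult myocardium, and is known to be engaged again in cardiac remodeling and fibrosis.

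The samples were left ventricles of C57BL/6J male mice operated at 8 weeks of age, either by transverse aortic banding (TAB), a constriction of the aorta that raises the pressure the left ventricle works against, or by a sham operation. Hearts were taken after surgery on day 3, 5, 7, 14 or 28, with 1 TAB and 1 sham sample per day, so that TAB and sham each had 5 samples and the study 10. All mice were of the same strain and sex and no genetic change is named in the labels, the number of mice behind a sample is not given in the sources used here, and for the day 14 TAB heart 1 label names another day than the title, which was followed. RNA was hybridized in 1 colour (Cy5) to the Mouse Whole Genome OneArray. Since each day had a single sample per operation, a log2 ratio of TAB over sham on a day has no replicate check, and the 5 days were taken as the replicates of an average TAB effect. The p-values therefore measure the spread of the ratio between days.

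The median raw intensity of an array lay between 34 and 57, and between 40.2% and 47.3% of its spots carried a negative flag, which was read as a spot that the scanner software did not find. Such a spot is called not found here and has only an upper bound. The cardiomyocyte markers were found on all 10 arrays. Precision is limited by the small number of arrays. A probe was kept when its median-scaled intensity was at least 1 in every sample, and kept probes were then quantile normalized. Of the 46 member probes, 35 probes of 32 genes were kept, and 0 of the 11 that were removed had been found on any array, with raw intensities between -5 and 13. Dkk1, Dkk4, Sfrp4, Wnt2b, Wnt3a, Wnt8a and Wnt10b had no kept probe, and Fzd3, Fzd5, Fzd8 and Fzd10 lost 1 probe each while another was kept. Of the kept probes, 22 (of 21 genes) were found on all arrays, 9 on some and 4 (Wnt4, Wnt6, Wnt10a and Fzd10) on none.

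The promoters of 4 inhibitors are shown because these genes carried the changes described next, Frzb and Sfrp2 being higher and Sfrp5 and Wif1 lower under TAB. Each window runs from 250 bases before to 50 bases after the start of the gene on its own strand (RefSeq, build GRCm38.p6). The windows lie at chr2:80447347-80447646 on the minus strand for Frzb, chr3:83766071-83766370 on the plus strand for Sfrp2, chr19:42202203-42202502 on the minus strand for Sfrp5 and chr10:121033754-121034053 on the plus strand for Wif1. Capitals mark the motifs searched on both strands, which were the TATA box (TATAAA), the CCAAT box (CCAAT), the GC box (GGGCGG) and the core of the TCF/LEF site (CTTTGA).
Frzb: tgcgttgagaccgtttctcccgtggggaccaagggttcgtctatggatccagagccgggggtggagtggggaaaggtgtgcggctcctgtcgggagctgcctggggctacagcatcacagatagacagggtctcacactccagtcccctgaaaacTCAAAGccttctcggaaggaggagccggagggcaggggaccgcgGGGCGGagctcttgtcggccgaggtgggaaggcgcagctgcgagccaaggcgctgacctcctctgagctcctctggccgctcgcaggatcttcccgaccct
Sfrp2: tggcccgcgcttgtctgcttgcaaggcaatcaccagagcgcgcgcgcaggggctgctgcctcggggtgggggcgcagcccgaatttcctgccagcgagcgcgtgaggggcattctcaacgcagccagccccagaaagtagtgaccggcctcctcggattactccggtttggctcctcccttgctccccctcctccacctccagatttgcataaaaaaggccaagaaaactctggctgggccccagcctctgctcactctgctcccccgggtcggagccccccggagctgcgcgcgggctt
Sfrp5: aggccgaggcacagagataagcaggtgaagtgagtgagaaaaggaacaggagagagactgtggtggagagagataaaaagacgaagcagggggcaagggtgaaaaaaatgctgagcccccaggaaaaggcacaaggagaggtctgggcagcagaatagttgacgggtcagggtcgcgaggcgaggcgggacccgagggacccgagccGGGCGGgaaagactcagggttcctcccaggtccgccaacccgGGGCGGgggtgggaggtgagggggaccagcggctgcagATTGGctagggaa
Wif1: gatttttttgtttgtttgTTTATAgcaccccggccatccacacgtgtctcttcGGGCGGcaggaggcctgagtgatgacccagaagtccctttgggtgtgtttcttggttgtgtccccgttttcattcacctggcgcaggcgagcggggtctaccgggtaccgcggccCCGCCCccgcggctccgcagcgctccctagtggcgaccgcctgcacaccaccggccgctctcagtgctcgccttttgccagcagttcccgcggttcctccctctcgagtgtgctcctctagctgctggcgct

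Frzb held a TCF/LEF core and a GC box, Wif1 a TATA box and GC boxes, Sfrp5 GC boxes and a CCAAT box, and Sfrp2 none of these letters. Windows were given for 27 of the 39 member genes (30 windows), Sfrp1 not being among them. A GC box stood in 76.7% of the 30 member windows and in 35.7% of all 32851 windows, and the median GC content was 66.5% against 52.7%. The median number of CpG dinucleotides was 25.5 in member windows and 7 in all windows. The other motifs were about as frequent in member windows as in all windows, with 16.7% against 16% for the TCF/LEF core, 16.7% against 13.6% for the TATA box and 36.7% against 37.4% for the CCAAT box. These are descriptions of the letters in the windows, and a match is not evidence of a bound site.

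The question put to the 5 pairs of samples was which members differed between TAB and sham over the whole time course. Most of the called members were secreted inhibitors. Frzb, Sfrp1 and Sfrp2 were up-regulated (4.29-fold, 4.23-fold and 4.05-fold), Sfrp5 and Wif1 were down-regulated (2.18-fold and 1.82-fold), the receptor Fzd1 rose (2.09-fold), the receptor Fzd9 fell (1.58-fold), and no Wnt ligand was called. By the adjusted p of limma over all kept probes, with day as a block, 7 of the 35 member probes (20%) passed the threshold of 0.05, where 14.2% of all 19976 kept probes did. In the direction higher in TAB, 4 members were called (7.47% of all probes), and in the direction lower in TAB, 3 (6.73% of all probes). By role, 5 of 7 inhibitor probes were called, 2 of 13 receptor probes and 0 of 15 ligand probes, with 4 ligand probes at an unadjusted p under 0.05, where 33.8% of all probes were. The roles differed in detection, with 7 of the 7 inhibitor, 8 of the 13 receptor and 7 of the 15 ligand probes found on every array. All 7 called members were found on every array, and they made up 7 of the 22 members found on every array (31.8%), where 17.0% of all such probes were called. The median of the mean log2 ratios was 0.07 over the 35 members and -0.05 over all probes. It was 0.59 for the inhibitors, 0.11 for the receptors and -0.09 for the ligands.

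Without the samples of day 3, 5 or 7, only Frzb was called among the members, and the calls over all probes fell from 2836 to 13, 35 and 23. Without day 14, 3 members (Frzb, Sfrp2 and Sfrp5) and 184 probes in all were called, and without day 28, 7 members and 2773 probes, Wif1 being lost and Wnt1 gained. The mean log2 ratio of the 7 called members kept its sign each time. After median scaling alone, 9 members were called, and the split over all probes moved from 1492 higher and 1344 lower to 1747 higher and 884 lower.

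**Figure D1:**
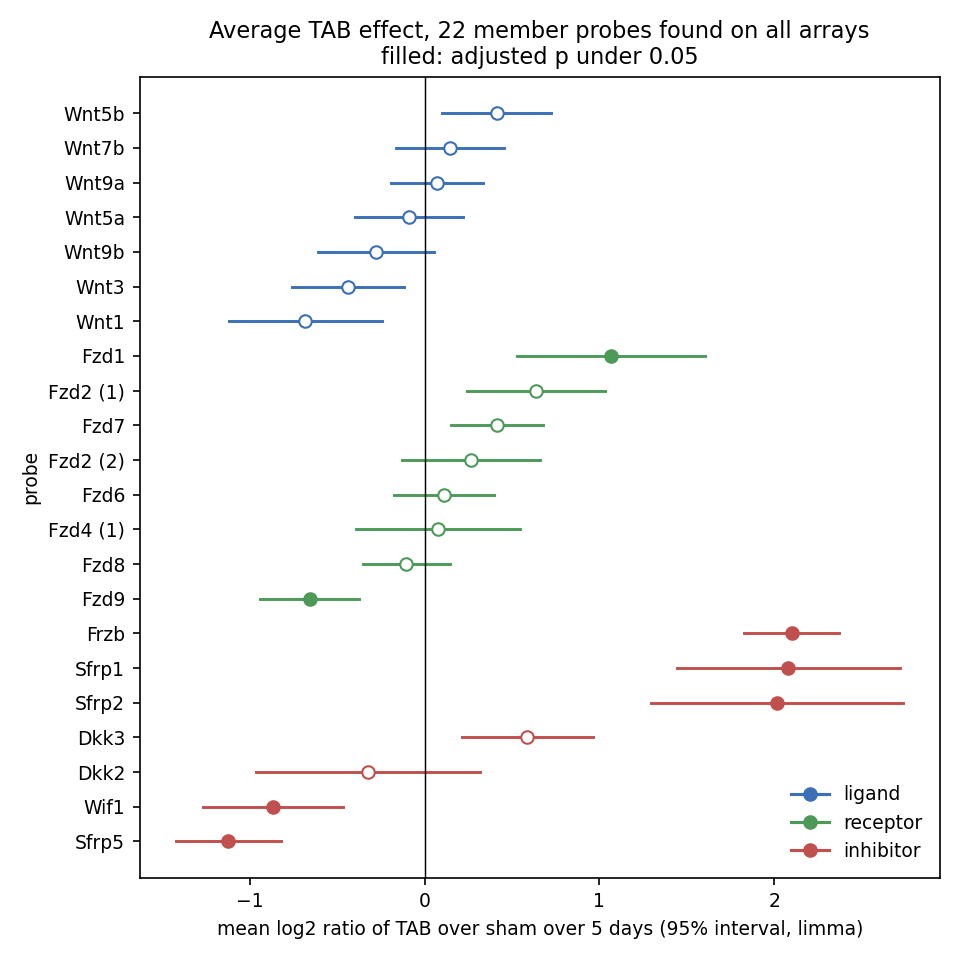
Mean log2 ratio of TAB over sham over the 5 days (x axis) for each of the 22 member probes found on all arrays (y axis), with the 95% interval of limma as a bar and colours for ligands, receptors and inhibitors. Filled points have an adjusted p under 0.05. Frzb, Sfrp1 and Sfrp2 lie near 2, whereas the ligands lie between -0.68 and 0.41, all of them unfilled.

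Frzb is a secreted Frizzled-related protein best known from cartilage. Its normalized intensity in the TAB samples of days 3, 5, 7, 14 and 28 was 983, 982, 1213, 1273 and 685, and in the sham samples of the same days 226, 228, 238, 306 and 188. The lowest TAB sample, of day 28, was thus above the highest sham sample, of day 14. The mean log2 ratio was 2.10 (SE 0.11, n = 5 days, adjusted p = 0.0044 from limma) and ranged from 1.87 to 2.35 on the 5 days. The largest difference between any pair of sham samples was 0.71 on the log2 scale, and all 5 ratios exceeded it. Frzb stayed below the threshold when any day was left out (adjusted p between 0.0107 and 0.0388) and in all 10 other settings.

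Sfrp1, a member of the same family that binds several Wnt proteins, had normalized intensities of 2741, 3679, 3205, 3376 and 1288 in the TAB samples of days 3, 5, 7, 14 and 28. Its sham samples had 616, 534, 773, 622 and 656. Here the TAB sample of day 28 stood below the other TAB samples and still above every sham sample. On average the log2 ratio was 2.08 (SE 0.26, adjusted p = 0.0174 from limma). It was 2.15, 2.79, 2.05 and 2.44 on days 3, 5, 7 and 14 and 0.97 on day 28.

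Sfrp2, a member of the family that fibroblasts are known to secrete and that also acts on collagen processing, had normalized intensities of 697, 980, 814, 2708 and 1003 under TAB. The sham samples had 328, 235, 251, 287 and 251. The TAB sample of day 14 stood high, and the groups did not overlap. Its mean log2 ratio was 2.02 (SE 0.30, adjusted p = 0.0205 from limma), with 1.09 on day 3 and 3.24 on day 14. Without day 14, which moved it most, the mean log2 ratio was 1.71 (adjusted p = 0.0480 from limma).

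Sfrp5 moved the other way within the same family. Its TAB samples had 49.0, 44.7, 38.4, 50.2 and 33.3 on days 3, 5, 7, 14 and 28, and its sham samples 112, 84.9, 90.3, 91.3 and 87.9. Every TAB sample was below every sham sample. The mean log2 ratio was -1.12 (SE 0.12, adjusted p = 0.0143 from limma) and ranged from -1.40 to -0.86, each day's ratio being larger in size than any difference between sham samples (0.39).

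Wif1, an inhibitor that binds Wnt proteins through its own WIF domain, had 149, 106, 120, 137 and 126 under TAB and 208, 298, 205, 222 and 235 in sham. The groups did not overlap, and the sham sample of day 5 was the highest of all. Over the days the log2 ratio averaged -0.87 (SE 0.17, adjusted p = 0.0297 from limma). On 4 of the 5 days it exceeded the largest difference between sham samples (0.54), the exception being day 3 (-0.48). With any 1 day left out Wif1 was not called (adjusted p between 0.0502 and 0.0971 from limma).

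Dkk3 and Dkk2 were the inhibitors found on all arrays that did not pass. Dkk3, a divergent Dickkopf protein, had a mean log2 ratio of 0.59 (SE 0.15, 95% interval 0.21 to 0.96, adjusted p = 0.0543 from limma), with TAB samples between 939 and 1660 and sham samples between 602 and 1214. It passed in 6 of 10 other settings. Dkk2 had a mean log2 ratio of -0.32 (interval -0.96 to 0.32), and its sham samples alone spread from 191 to 616.

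**Figure D2:**
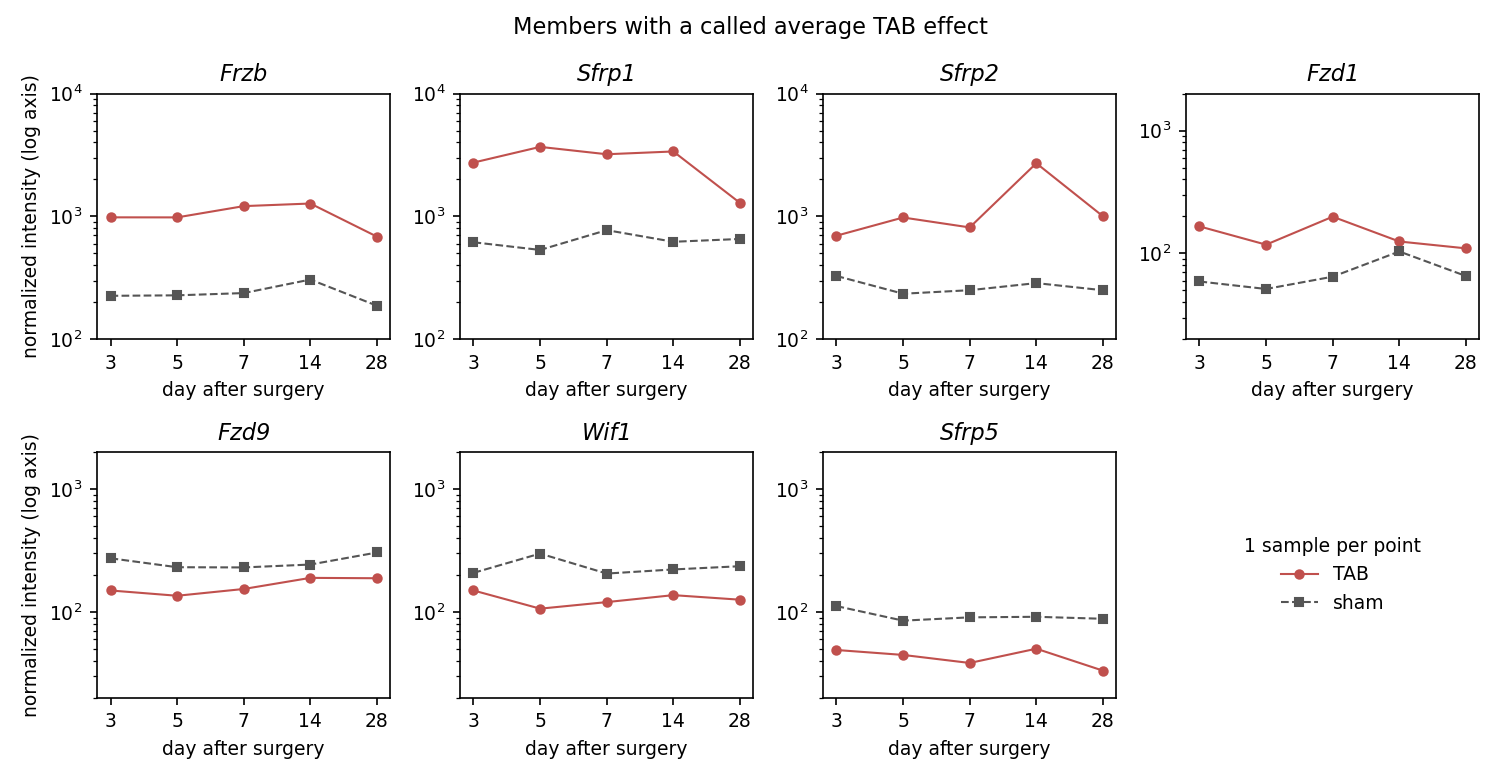
Normalized intensity on a log axis (y) by day after surgery (x) for the 7 members with a called average TAB effect, 1 point per sample, TAB in red and sham in grey (y axes differ between panels). In no panel do the TAB and sham samples overlap, and the Sfrp2 sample of day 14 (2708) and the Sfrp1 sample of day 28 (1288) stand apart from the other TAB samples.

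Among the receptors, Fzd1, which can carry canonical Wnt signals, had normalized intensities of 166, 118, 199, 125 and 110 under TAB and 59.1, 51.4, 64.7, 104 and 65.5 in sham. The sham sample of day 14 came close to the lowest TAB sample without reaching it. The mean log2 ratio was 1.07 (SE 0.22, adjusted p = 0.0343 from limma), being 1.49, 1.2 and 1.62 on days 3, 5 and 7 but 0.27 and 0.75 on days 14 and 28. Only the 3 early ratios exceeded the largest difference between sham samples (1.01).

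Fzd9 had 149, 135, 154, 189 and 188 under TAB and 273, 231, 230, 243 and 304 in sham, so that every TAB sample was lower. On average the log2 ratio was -0.66 (SE 0.12, adjusted p = 0.0268 from limma).

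The other receptors found on all arrays were not called. The closest were the 1st probe of Fzd2 (mean log2 ratio 0.64, interval 0.24 to 1.03, adjusted p = 0.0506 from limma), whose TAB samples (77.7 to 123) all exceeded the sham samples (52.4 to 69.9), and Fzd7 (0.42, interval 0.15 to 0.68, adjusted p = 0.0535 from limma). They passed in 8 and 7 of the 10 other settings. The 2nd probe of Fzd2 gave a smaller value (0.27, interval -0.13 to 0.66), with overlapping groups (166 to 247 under TAB, 138 to 218 in sham). Fzd6 (0.11, interval -0.18 to 0.40) and Fzd8 (-0.10, interval -0.35 to 0.14) had intervals that spanned 0.

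Fzd4 had 2 kept probes. The 1st was found on all arrays and had a mean log2 ratio of 0.08 (interval -0.39 to 0.54). The 2nd was found on 2 sham arrays only. The kept probes of Fzd5 and Fzd3 were found on part of the arrays, with mean log2 ratios of -0.32 and 0.36 for Fzd5 and 0.19 for Fzd3, none of them called.

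Of the 15 kept ligand probes, 7 were found on all arrays, and their mean log2 ratios ranged from -0.68 to 0.41. Wnt1 was the lowest. Its TAB samples had 264, 315, 230, 358 and 401, all below the sham samples (517, 522, 524, 476 and 435), and the mean log2 ratio was -0.68 (SE 0.18, interval -1.12 to -0.24, adjusted p = 0.0548 from limma). It was called in 6 of 10 other settings and without day 28 (adjusted p = 0.0397), when the highest TAB sample was left out. Wnt3 (-0.44, interval -0.76 to -0.11, adjusted p = 0.075 from limma) and Wnt5b (0.41, interval 0.10 to 0.72, adjusted p = 0.0784 from limma) were next. Wnt5a, the main ligand of the polarity and calcium branches, had a mean log2 ratio of -0.09 (interval -0.40 to 0.22), and Wnt7b, Wnt9a and Wnt9b had 0.15, 0.07 and -0.28.

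Some Wnt genes are neighbours in the genome, and 4 pairs of members were adjacent protein-coding genes in the GRCm38.p6 annotation. Wnt3 and Wnt9b were both measured on all arrays and both had negative mean log2 ratios. In the pairs of Wnt1 with Wnt10b, Wnt9a with Wnt3a, and Wnt6 with Wnt10a, at least 1 gene was found on no array.

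The remaining ligands lay near the limit of detection. Wnt7a had 41.9, 51.1, 20.2, 12.1 and 13.3 under TAB, found on days 3 and 5 only, and 11.8, 3.62, 7.15, 10.01 and 9.82 in sham, found on no array. Set against the lowest intensity of any found spot on the sham array of the day, or the spot itself where that was brighter, Wnt7a was at least 3.54-fold higher under TAB on day 3 and at least 7.69-fold higher on day 5. With the 1st percentile of the found spots as the limit, chosen after seeing the data, the bounds were 2.21-fold and 1.70-fold. The average TAB effect of Wnt7a was not called (mean log2 ratio 1.57, adjusted p = 0.0908 from limma).

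Wnt2 had 47.0, 25.8, 20.8, 14.4 and 10.2 under TAB, found on days 3 and 5, and 14.1, 6.64, 15.5, 27.04 and 9.82 in sham, found on day 14. It was at least 3.33-fold higher under TAB on day 3, or 2.48-fold with the stricter limit. On day 5 it was 3.89-fold higher and on day 14 1.88-fold lower by the intensities of the spots themselves. With the stricter limit no fold could be given for either day. Wnt11, a ligand of the polarity branch, had 19.0, 6.74, 31.03, 10.9 and 11 under TAB, found on 1 array, and 7.73, 15.5, 47.8, 31.9 and 25.3 in sham, found on 3. On day 14 it was at least 2.92-fold lower under TAB, or 1.04-fold with the stricter limit. The 2nd probe of Fzd4 resembled it, with 9.71, 14.6, 13.9, 8.79 and 16.9 under TAB and 10.3, 11.8, 15.5, 36.4 and 27.2 in sham, and was at least 4.14-fold lower on day 14, or 1.18-fold with the stricter limit. The sham sample of day 14 was the highest of all 10 samples for the atrial markers Myl7, Myl4 and Sln, whose part in these lower values was not tested. For Wnt2, Wnt11, the Fzd4 probe and Wnt7a on day 3, the first limit was the intensity of the spot not found. Each of those folds equals the plain ratio of the day.

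By the rule of the study's methods, a log2 ratio more than 2 SDs of the day from 0, 10 of the 35 member probes passed on at least 1 day, against 17.9% of all probes. Higher in TAB were 6 (10.7% of all probes) and lower 4 (8.59% of all probes). Frzb passed on all 5 days, Sfrp1 on days 3 to 14, Sfrp2 on days 5, 14 and 28 and Sfrp5 on day 28. Wnt7a passed on days 3 and 5, Wnt2 on day 5, and Wnt11 and the 2nd Fzd4 probe on day 14, each with spots that were not found on the dimmer side, and Wnt6 and Wnt10a passed although they were found on no array. On days 3, 5, 7, 14 and 28 there were 3, 5, 3, 6 and 3 members past the rule, where 5.40%, 5.46%, 5.49%, 5.66% and 5.91% of all probes were. With an absolute log2 ratio of at least 1 in place of 2 SDs, 20 of the 35 passed on at least 1 day, against 42.5% of all probes. Applied to the 10 possible pairs of sham hearts, none of them banded, the same rule gave between 1 and 4 members (median 2) and between 5.55% and 6.18% of all probes. The SD that sets the rule is each comparison's own, so the counts of TAB days and sham pairs are not on one scale. All TAB samples were above all sham samples for 6 members (8.78% of all probes) and below them for 4 (7.59% of all probes). These were the 7 called members with Fzd2 (1st probe) and Wnt7a on the high side and Wnt1 on the low side. Wnt7a was found on 2 arrays only, so the order of its samples on days 7, 14 and 28 is not settled.

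**Figure D3:**
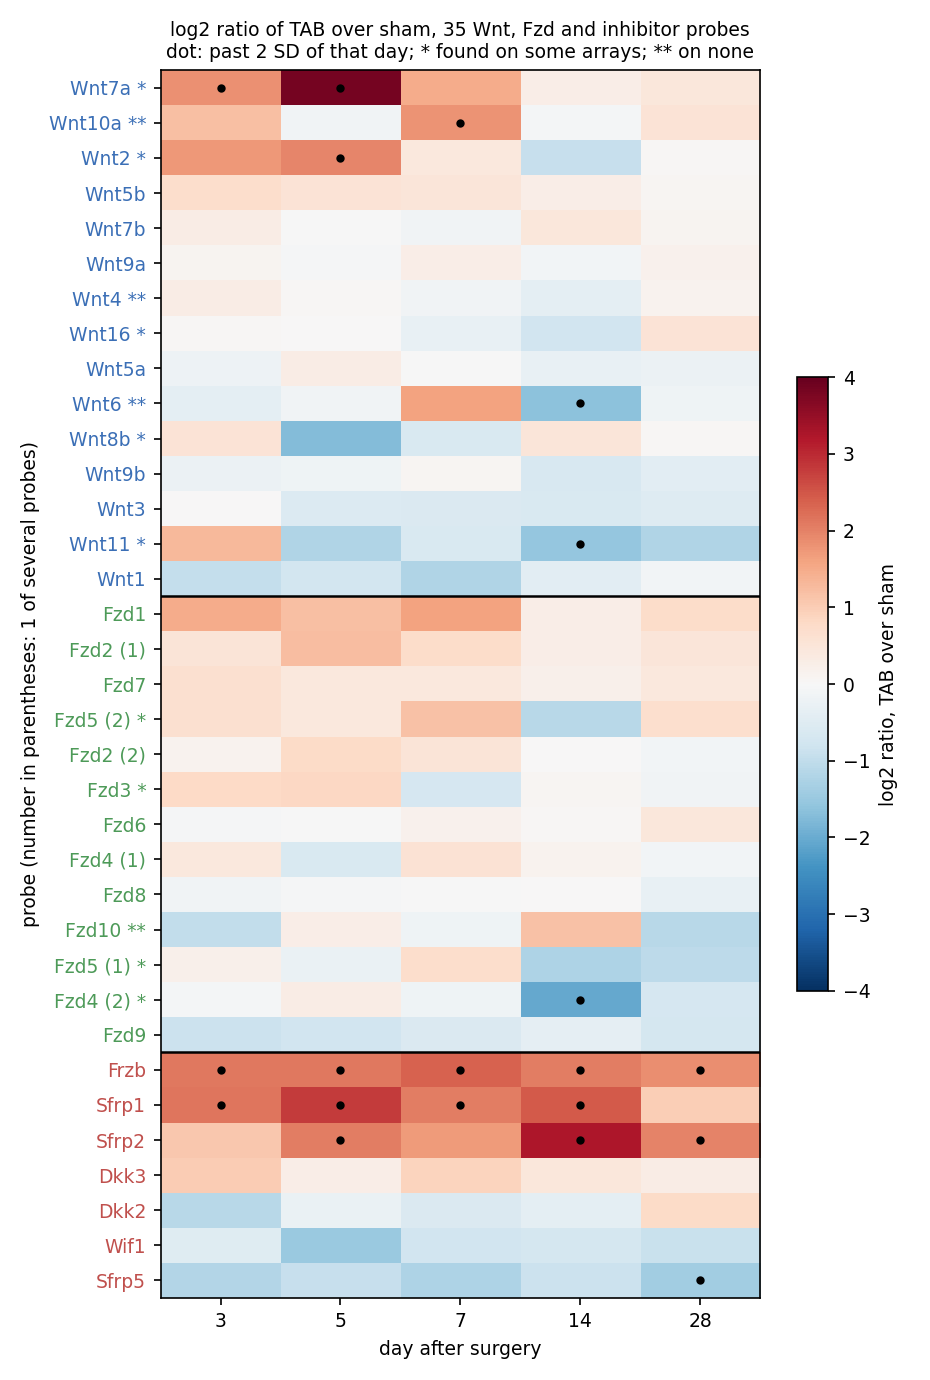
Log2 ratio of TAB over sham (colour) for the 35 kept member probes (rows, grouped as ligands, receptors and inhibitors) on each day after surgery (columns), with a dot where the ratio was past 2 SDs of the day, 1 star for probes found on some arrays and 2 stars for probes found on none. Frzb, Sfrp1 and Sfrp2 form the only rows with dots on 3 or more days, and the dots among ligands and receptors fall on probes not found on all arrays.

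Whether the TAB effect differed between the early days (3, 5 and 7) and the late days (14 and 28) was tested as a contrast within limma. No member was called (adjusted p under 0.05), nor was any of the 19976 probes (0.00%), and no member was called by limma with trend and robust on, when 35 of all probes were. At an unadjusted p under 0.05, 6 members passed, where 10.4% of all probes did. These were Fzd1 (early minus late 0.93, SE 0.26), Fzd5 (1st probe, 1.34, SE 0.33), Fzd4 (2nd probe, 1.39, SE 0.46), Wnt1 (-0.70, SE 0.24), Wnt2 (1.80, SE 0.58) and Wnt7a (2.02, SE 0.75). All 6 had an adjusted p of at least 0.429. Of these, Fzd1 and Wnt1 were found on all arrays. For the up-regulated inhibitors the early minus late difference was 0.23 (SE 0.21) for Frzb, 0.62 (SE 0.51) for Sfrp1 and -1.0 (SE 0.49) for Sfrp2.

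In these bulk samples, a change in the number of cells of a type and a change of RNA per cell cannot be told apart. Markers of other cell types moved with the operation. Of the 7 kept fibroblast probes, 4 (Col1a2, Col3a1, Lum and Postn) were called higher in TAB and 0 lower. Col1a2 was 11.2-fold higher, Col3a1 12.9-fold (found on 4 of the 5 sham arrays), Postn 10.4-fold and Lum 1.51-fold. The summed normalized intensity of the 7 probes lay between 58218 and 80058 under TAB and between 46597 and 51165 in sham, with both Dcn probes, which were not called, making up much of it. Tcf21 was found on all arrays and not called (0.24), and Col1a1 and Pdgfra had no kept probe. All 6 kept leukocyte probes (Ptprc, Csf1r, Cd68, Itgam, Cd14 and Emr1) were called higher, with sums of 2253 to 5548 under TAB and 1421 to 1747 in sham. Of the 8 cardiomyocyte probes 0 were called. Myl2 was saturated, and the sum of the other 7 lay between 177260 and 196448 under TAB and between 183998 and 209902 in sham. The 8 endothelial probes had 0 calls (5056 to 7249 and 4742 to 5977). The part of these cells in the changes of Frzb, Sfrp1, Sfrp2 and Fzd1 was not tested.

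On the log2 scale, the summed fibroblast markers were 0.56, 0.60, 0.64, 0.65 and 0.32 higher in TAB on days 3, 5, 7, 14 and 28, and the leukocyte markers 1.44, 1.97, 1.83, 0.79 and 0.65. The lowest ratio of Sfrp1, on day 28, fell on the day on which both lists had their lowest ratio. The highest ratio of Sfrp2 fell on day 14, when the fibroblast ratio (0.65) was close to that of day 7 (0.64). The leukocyte ratio of day 14 was below its values on days 3 to 7. All 4 called fibroblast markers had their highest ratios on day 5 (Col1a2 4.57, Col3a1 5.81, Postn 3.83 and Lum 0.79). Their lowest ratios fell on day 28 (2.13, 2.50, 2.40 and 0.19).

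**Figure D4:**
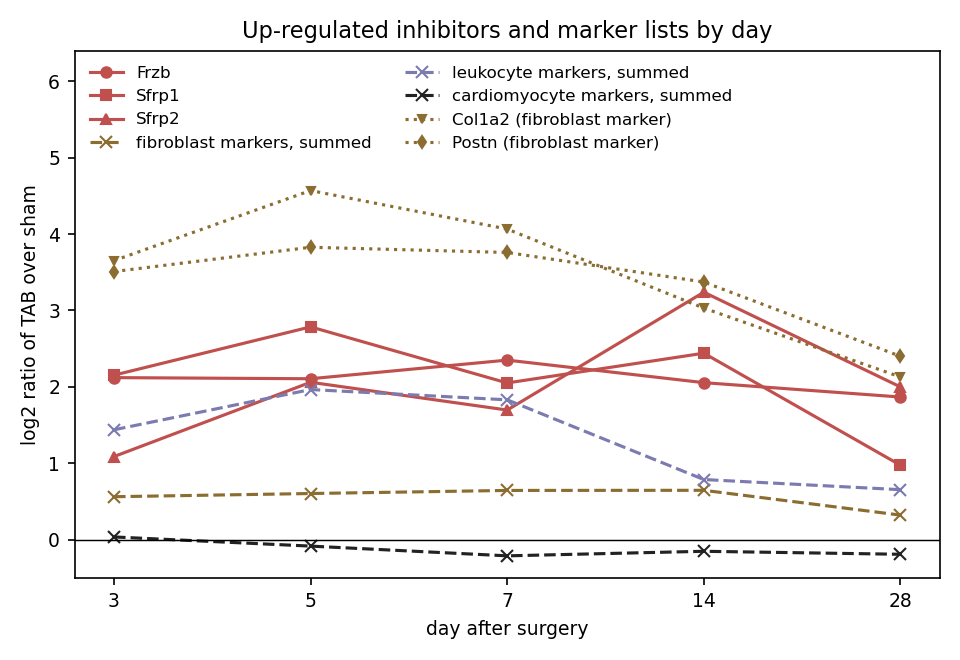
Log2 ratio of TAB over sham (y axis) by day after surgery (x axis) for Frzb, Sfrp1 and Sfrp2 (red) and for the summed normalized intensity of the fibroblast, leukocyte and cardiomyocyte markers (dashed; the saturated Myl2 left out) and for Col1a2 and Postn alone (dotted), 1 TAB and 1 sham sample per point. Leukocyte markers peak on day 5 (1.97) and cardiomyocyte markers stay between -0.21 and 0.04, while Sfrp2 peaks on day 14 (3.24).

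Markers that the ventricle should hold little of were examined beside the down-regulated members. Of the 5 atrial probes, Nppa, which ventricles also make under load, was called higher and set the sum (31907 to 40258 under TAB, 11206 to 26110 in sham). The other 4 were not called. Myl7 ranged from 818 to 1798 under TAB and from 1863 to 3862 in sham, Myl4 from 1477 to 2623 and from 1751 to 4350, and Sln from 260.1 to 746 and from 657 to 1761. In each of these 3 the sham sample of day 14 was the highest and the TAB sample of day 14 the lowest of all. The log2 ratios on that day were -2.24, -1.56 and -2.76, each past 2 SDs there and on no other day. Myl7 and Sln were lower in TAB on all 5 days and Myl4 on 3, and the TAB and sham samples of Myl7 did not overlap. Sfrp5, Wif1 and Fzd9 were likewise lower in TAB on all 5 days without overlap, and their highest sham sample was not that of day 14. Bmp10 was found on 3 sham arrays and no TAB array. Among epicardial and mesothelial probes 0 of 5 were called (list sums 179 to 279 under TAB, 232 to 312 in sham). Among adipocyte probes 1 of 5 was called, Cfd, higher (149 to 304 under TAB, 107 to 125 in sham). Cidea (mean log2 ratio 0.42), Adipoq (-0.10), Plin1 (-0.09) and Fabp4 (-0.51) were not called. The adipocyte sum, lower in TAB on every day, was 6281 to 11371 against 9946 to 11886. Among smooth muscle and pericyte probes 1 of 5 was called, a Cspg4 probe, higher (407 to 581 under TAB, 252 to 332 in sham). The other Cspg4 probe (0.50), Acta2 (0.53), Myh11 (-0.11) and Rgs5 (-0.59) were not called. The sum of that list was 2310 to 2827 against 2015 to 2908. The part of the atrial and other cells named here in the lower values of Sfrp5, Wif1 and Fzd9 was not tested.

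The rest of the pathway was taken from 7 lists of 84 further genes with 91 probes, of which 81 probes were kept. Of these, 13 were called higher in TAB and 4 lower (21.0%, against 14.2% of all probes), and their median mean log2 ratio was 0.02. The number of calls differed between the lists. Co-receptors and other receptors had 2 of 10 probes higher and 1 lower, ligand export and processing 1 of 4 higher, other inhibitors at the membrane 1 of 12 higher, cytoplasmic transduction 2 of 24 higher and 3 lower, the nuclear list 0 of 12, the polarity branch 2 of 11 higher, and common targets of beta-catenin and TCF 5 of 17 higher and 1 lower. Nkd1 counts in the last and in the cytoplasmic list. Each of these calls was lost when at least 1 of the days was left out (highest adjusted p of a gene between 0.0703 and 0.127 from limma).

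Among the 10 kept probes of co-receptors and other receptors, 2 were called higher, 1 lower and 7 not at all, where 14.2% of all probes were called. Ror2, a co-receptor of the polarity branch, was found on 5 TAB arrays (36.8 to 81.0) and no sham array, and was at least 5.28-fold higher under TAB (adjusted p = 0.0178 from limma), or 2.31-fold with the stricter limit. Gpr124, a co-receptor for some Wnt7 signals, rose (mean log2 ratio 0.79, 308 to 537 under TAB and 227 to 269 in sham). Lgr6, a receptor for R-spondins, fell (-1.0, 200.1 to 284 under TAB and 362 to 542 in sham).

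Within the cell, Nkd2, which binds Dishevelled and dampens the signal, rose (1.12 by the probe found on all arrays), and Apc, a scaffold of the beta-catenin destruction complex, fell (-0.78, 146 to 213 under TAB and 250 to 438 in sham). The other Nkd2 probe, found on 2 sham arrays only besides the 5 of TAB, was called higher too (66.9 to 144 under TAB, 8.70 to 45.6 in sham, near background). A probe of Nkd1 was called lower (-0.71) though found on no array, and the other probe of that gene, found on 7 arrays, was not (-0.18). Vangl1, a polarity protein, rose (0.66). Ctnnb1, which encodes beta-catenin, had a mean log2 ratio of -0.08 and Tcf7l2 of 0.04, neither called.

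Among the common targets, those that rose were Wisp1, Wisp2, Cd44, Ccnd1 and Twist1. Wisp1, a matricellular protein, was found on all TAB arrays (58.6 to 325) and no sham array and was at least 11.7-fold higher, or 6.18-fold with the stricter limit. Cd44, a hyaluronan receptor, was at least 4.25-fold higher, or 1.86-fold with the stricter limit. Wisp2 rose by 1.99 on the log2 scale, Ccnd1 (cyclin D1) by 0.84 and Twist1, found on 3 of the 5 sham arrays, by 0.82. The part of the cell types described above in these changes was not tested. Axin2, the target most often used as a readout of the canonical branch, was not called (-0.38, adjusted p = 0.488 from limma, found on 8 arrays). Its TAB sample of day 3 (13.8, not found, against 55.2 in sham) set that mean, which was 0.03 without day 3 (adjusted p = 0.918 from limma). Myc was not called either (1.09, adjusted p = 0.0563 from limma), and Lef1 and Sp5 were found on no array. Cthrc1, a secreted cofactor of the polarity branch, had raw intensities of 206 to 3926 on the TAB arrays, all found, and of -2 to 6 on the sham arrays, none found, and was left out of the fit by the filter on low values.

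**Figure D5:**
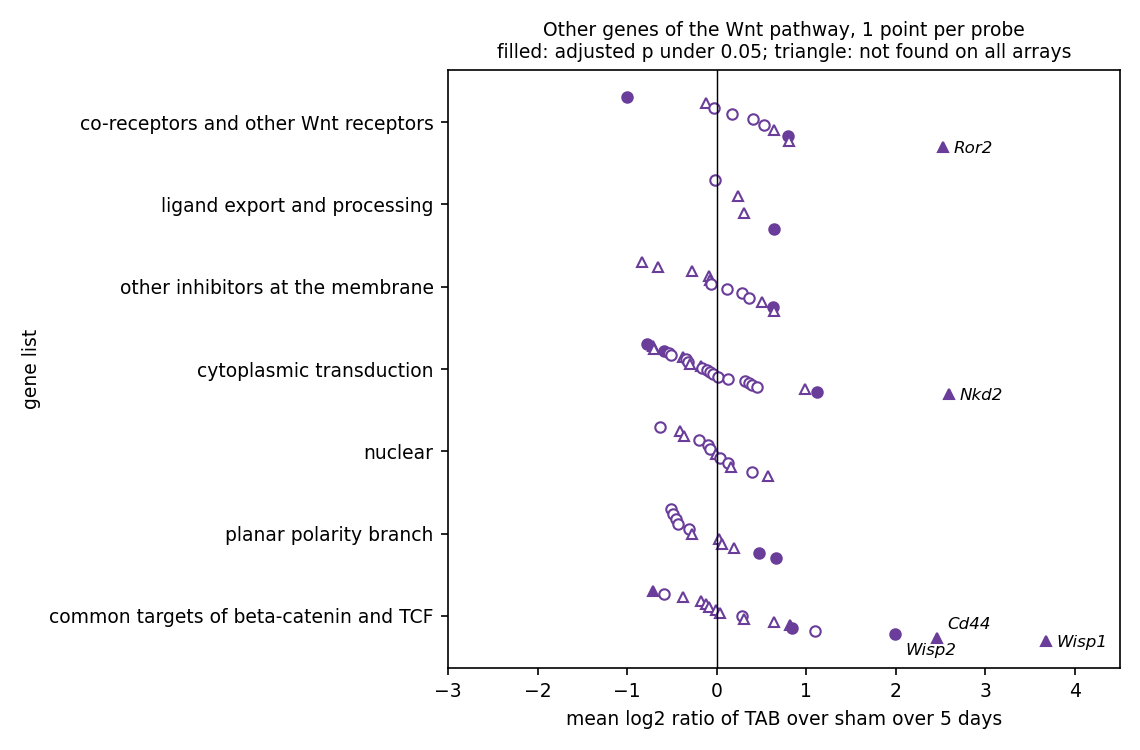
Mean log2 ratio of TAB over sham over the 5 days (x axis) for the kept probes of 7 lists of other Wnt pathway genes (y axis), 1 point per probe, filled where the adjusted p of limma was under 0.05 and drawn as a triangle where the probe was not found on all arrays. The points farthest right, Ror2, Nkd2, Cd44 and Wisp1, are triangles, so that their ratios include sham values near background, while Wisp2 (1.99) was found on all arrays.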

How the data were processed

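mRNA of left ventricles from TAB-operated and sham-operated mice was measured on 10 arrays, 1 per operation and day. The authors deposited the raw Cy5 intensity of each probe (Agilent scanner, GenePix), background-subtracted by a method not given in the sources used here and not scaled between arrays, together with a detection p-value that was not used and a flag whose negative value (-50) was read as not found. The slide and scan batch are not given in the sources used here.

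Arrays were brought to the same median, a probe was dropped if its scaled intensity fell below 1 anywhere, and quantile normalization (median of each rank) preceded log2, as in the study's methods. Those can be read as normalizing within each operation. All 10 samples were normalized together here, and the other reading, run as an alternative, called 10 members (of all probes, 1856 higher and 979 lower). Probes were kept apart, because choosing the probe of a gene by its ratio would use the outcome. The average TAB effect and its early minus late difference were fitted over all 19976 kept probes with lmFit and eBayes of limma 3.58.1 (R 4.3.3; trend and robust off), with day as a block since the study's ratios pair the samples of a day, and Benjamini-Hochberg adjustment at 0.05. The fit was tested on simulated data. Tables and plots used Python 3.11.15 with numpy 2.4.6, pandas 2.3.3 and matplotlib 3.10.9.

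For a fold bound, the brighter samples were averaged and the dimmer ones were each set to the lowest found intensity of the array, or to the probe's own where that was higher. Values in every sample are given for members with an adjusted p under 0.05 and for those past 2 SDs on a day on which the brighter spot was found; of other pathway genes, at most 12 of those called are named by size, with Axin2, Lef1, Sp5, Myc, Ctnnb1, Tcf7l2 and Cthrc1 named after their values were seen. Dkk2, Dkk3 and the other uncalled members are given by their ranges, except Wnt1, whose values by sample were added after they were seen. The members, the gene lists and the marker lists were chosen with earlier results of these data known. Alternatives were no quantile step (median scaling alone), TAB and sham quantile normalized apart, rank means in place of rank medians, 50 added before log2, low values set to 1, the lowest tertile or probes not found on all arrays left out, 1 probe per gene, no day block, trend and robust on, an absolute log2 ratio of at least 1, and each day left out.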

Additional observations from a re-analysis of the deposited data

Results flagged for a closer look

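Chance places about 1 in 20 groups of 5 samples so that the highest or lowest sample stands apart by the measure used here, the gap to the nearest sample as a share of the whole range on the log2 scale. Among 44 groups (the TAB and the sham samples of the 22 member probes found on all arrays), 5 did so.

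For Sfrp2, the TAB sample of day 14 had a normalized intensity of 2708, where the next TAB sample had 1003 (gap 0.732 of the range). For Sfrp1, the TAB sample of day 28 had 1288 against 2741 in the nearest TAB sample (gap 0.720). In sham, the day 14 sample stood high for Fzd6 with 467 against 331 (gap 0.728), the day 3 sample for Sfrp5 with 112 against 91.3 (gap 0.736) and the day 28 sample for Wnt3 with 260.0 against 207 (gap 0.749).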

How the results depend on the processing

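The count of 7 member probes called for the average TAB effect was 9 with median scaling only, 10 with quantile normalization within each operation, 7 with the mean of each rank, 12 with 50 added before log2, 3 with low intensities set to 1, 13 with the lowest tertile left out, 13 with probes not found on all arrays left out, 11 with 1 probe per gene and 13 with trend and robust on, and 1 to 7 when each day was left out. The share of all probes called was 14.2% before and 13.2%, 14.2%, 14.1%, 24.5%, 1.4%, 32.8%, 34.6%, 17.1% and 23.7% in the same order, and between 0.0651% and 13.9% with a day left out. Frzb, Sfrp1 and Sfrp5 were called in all 10 settings other than those that left a day out, and Sfrp2, Fzd1, Wif1 and Fzd9 in 9, the exception being low intensities set to 1 (adjusted p of limma between 0.0526 and 0.0744). Frzb was also called with each day left out. No mean log2 ratio of a called member changed sign. The fit without the day as a replicate block called 10 members, Wnt7a among them (adjusted p = 0.0401), and 19.4% of all probes. The deviations of same-day samples from their group means correlated across probes with r between 0.00148 and 0.112, and 1 of 5 samples correlated best with its own day. The count of 10 members past 2 SDs on a day (17.9% of all probes) was 5 of 22 with the lowest tertile left out (12.2% of all), 6 of 22 with probes not found on all arrays left out (13.2%), 13 of 46 with low intensities set to 1 (22.5%) and 20 of 35 with an absolute log2 ratio of at least 1 (42.5%), 9 or 10 in the other settings, and 7 to 10 when each day was left out (14.5% to 16%). The count without overlap was 9 to 12 and the count of members with an early-late difference 0 in every setting, where 0 to 35 of all probes had one. The bounds of Wnt7a, Wnt11, the Fzd4 probe, Ror2, Wisp1 and Cd44 moved by over 1.5 times with the 1st percentile of found spots, which lay between 17.8 and 39.5 per array, and Wnt2 had no bound with it on days 5 and 14. Without the saturated Myl2, a setting chosen after seeing the data, the log2 ratio of the summed cardiomyocyte markers lay between -0.21 and 0.04, against -0.16 and 0.03 with it. The cause of these differences was not tested. Spots at background limit Wnt7a, Wnt2, Wnt11 and the probes found on no array.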
